A study of Mus musculus with 20 samples.

Results

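The genes described here encode proteins that the liver releases into blood plasma, followed in mouse hepatoma cells kept at a constant or a varied glutamine concentration. They were taken by symbol from the platform annotation. The rule took albumin and other carriers, fibrinogen chains, numbered coagulation factors, the inter-alpha-trypsin inhibitor family, apolipoproteins, and every gene whose symbol begins with Serpin. No measured value entered this rule. It gave 64 genes on 65 probes, Serpinb12 having 2, of 13406 gene symbols on the array. Of these genes, 7 are carriers and other plasma proteins, 5 belong to the inter-alpha-trypsin inhibitor family, 12 are apolipoproteins, 12 are coagulation factors or fibrinogen chains, and 28 are serpins. The rule reads symbols and not secretion. The 13 clade B serpins are mostly proteins of the cell interior, Serpinh1 is a collagen chaperone of the endoplasmic reticulum, and F3 (tissue factor) is a membrane protein.

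The cells were Hepa1-6, an established line from a mouse liver tumour, in medium with 25 mM glucose. Control flasks stayed at 4 mM glutamine for 96 h, and experimental flasks were switched between 0 and 4 mM glutamine, with the medium of every flask changed at the start and at 24, 48 and 72 h. Each of 20 spotted arrays compared experimental RNA, labelled with Cy5, with control RNA, labelled with Cy3, at 1 of 11 numbered time points. The labels give neither the hour nor the glutamine level of a time point. Nor do they say whether the letter r on a repeated array means another flask or another hybridisation. P-values that rest on the spread between arrays of a time point may therefore measure technical spread only. Those for a mean or a trend over time points rest on the spread between time points. For the first array of time point 4 the label of the second channel names cells without glutamine. This was read as a slip, and it bears on every value of time point 4. In the labels the flasks differed in their glutamine alone, and 1 cell line stands for the liver.

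Hepatocytes make most plasma proteins. Their messages are translated on the endoplasmic reticulum and the proteins leave through the Golgi apparatus. Liver transcription factors such as HNF1, HNF4, FOXA and C/EBP proteins bind many of these promoters, and inflammatory signals raise one group of them, the acute phase proteins, and lower others, such as albumin and transferrin. Hepatoma lines keep part of this programme. Glutamine, a nitrogen and carbon source for cultured cells, is one of the nutrients on which the rate of protein synthesis depends.

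A 300-base stretch around the start of 2 genes is shown because Alb and Fgb, lower members described later, are textbook targets of HNF1. The sequences were read from RefSeq (GRCm38.p6), run 5′ to 3′ on the gene's strand from 250 bases before the start to 50 bases after it, and hold the letters GTTAAT or, on the other strand, ATTAAC in capitals. This is the short core of the HNF1 recognition sequence. Alb lies at chr5:90460620-90460919 on the plus strand and Fgb at chr3:83049814-83050113 on the minus strand.
Alb: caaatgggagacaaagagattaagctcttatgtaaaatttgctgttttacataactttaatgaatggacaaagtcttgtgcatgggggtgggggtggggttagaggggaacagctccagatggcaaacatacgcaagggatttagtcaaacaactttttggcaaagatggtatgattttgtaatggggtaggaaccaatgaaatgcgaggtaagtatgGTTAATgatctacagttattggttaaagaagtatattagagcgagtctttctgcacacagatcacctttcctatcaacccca
Fgb: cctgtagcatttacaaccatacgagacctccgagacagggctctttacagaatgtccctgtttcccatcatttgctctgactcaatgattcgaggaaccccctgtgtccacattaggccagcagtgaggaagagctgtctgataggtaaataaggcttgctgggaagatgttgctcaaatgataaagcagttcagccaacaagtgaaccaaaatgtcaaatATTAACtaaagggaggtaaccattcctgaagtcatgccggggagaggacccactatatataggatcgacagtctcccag
Among 27025 mouse genes with such a stretch, 8.24% held GTTAAT on either strand. Of 53 members with a promoter in that table, 10 held it (18.9%), namely Afp, Alb, Apoc2, Apoe, F2, Fga, Fgb, Itih1, Serpinb8 and Serpini2. Itih3 and Serpinb6b, which were lower members too, did not hold it. The letters TATAAA, searched in the same way, stood in 15.7% of all genes and in 13 of 53 members (24.5%). A match is a description of letters and no evidence of binding.

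Values are log2 ratios with the array's median subtracted, so that 0 is the median probe of that array. The direction is likely experimental over control, so a negative value means less RNA in the varied flasks. No array had its dyes swapped, so a gene's constant bias for a dye cannot be told apart from a constant difference between flasks. A lower ratio in RNA from a whole flask cannot be told apart into less RNA per cell and fewer cells that express the gene. An array held between 4269 and 8269 values, and between 14 and 28 members had one. Arrays of one time point correlated at r between 0.516 and 0.689 over genes at 7 time points, but at 0.0483 at time point 6 and -0.00792 at time point 10. The arrays titled r of those 2 time points were left out, which left 18 arrays, 2 at each of 7 time points and 1 at each of time points 5, 6, 10 and 11. On the array of time point 5 the first spots of every 20 carried raised ratios (medians 2.72, 1.24, 0.46 and 0.14 at places 1 to 4), and on that of time point 6 the medians were 1.28, 0.33, 0.13 and 0. Spots at the first place were set to missing on these 2 arrays. How precise a value is depends on how many arrays measured it.

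Of the 64 members, 50 gave a value on at least 1 of the 20 arrays and 14 on none. Among the 18 arrays, 26 members had no value, 16 had one at 1 to 5 time points, 3 at 6 to 8, and 19 at 9 or more. These 19 were tested for a mean over time points that differs from 0. Limma's test called 2 of them higher (10.5%) and 5 lower (26.3%) in the varied flasks at an adjusted p under 0.05. Over the 4398 genes tested, 21.2% were called higher and 12.2% lower. The lower members were Alb, Apoe, Fgb, Itih3 and Serpinb6b, and the higher ones Apoc3 and Serpina9. The median of the 19 means was -0.06, against 0.03 over all genes, and 10 of 19 means were negative (52.6%), against 45.0% of all genes. The median size of a mean, sign aside, was 0.20 for the members and 0.14 for all genes. Without the clade B serpins, 2 of 15 members were higher and 4 lower.

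The split between higher and lower depends on the centring. Without it, 10 members were called higher and 1, Alb, lower, when 67% of all genes were called higher and 1.57% lower. Centring on the genes measured on all 18 arrays called 1 member higher, Apoc3, and 9 lower, when 9.87% of all genes were higher and 26.4% lower. With all 20 arrays and every spot, 2 members were higher and 3 lower (Alb, Itih3 and Serpinb6b), against 13.6% and 9.05% of all genes. Leaving out time point 8, 9 or 10 also left 3 lower members. Apoc3 was called higher and Alb lower in each of these settings.

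**Figure D1:**
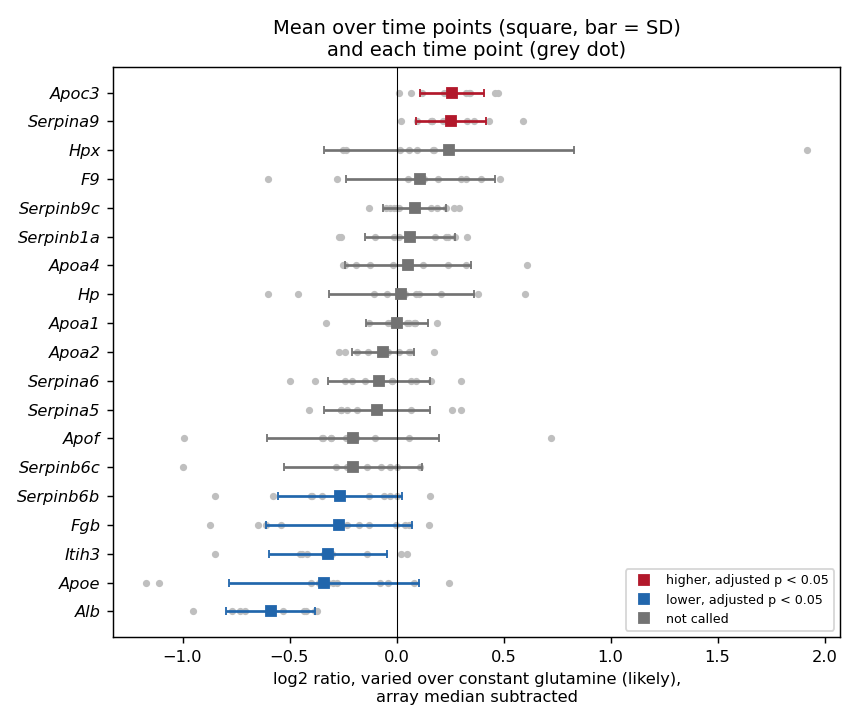
Mean log2 ratio over time points (squares, bars are the SD) and the value at each time point (grey dots) for the 19 members with 9 or more time points, with members ordered by their mean on the y axis and the log2 ratio on the x axis. Alb (mean -0.59) lies lowest and Apoc3 (0.26) highest, and blue or red squares mark the 7 called members.

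Among the carriers, Alb was lower in the varied flasks and the haem and haemoglobin scavengers were not called. Alb encodes albumin, the main protein of plasma and its carrier of fatty acids. Its ratio was -0.37 at time point 1, -0.73 at 3, -0.43 at 4, -0.38 at 5, -0.71 at 6, -0.43 at 7, -0.53 at 9, -0.95 at 10 and -0.77 at 11, with no value at 2 and 8. All 11 arrays that measured it were below 0, from -0.95 to -0.09, and the arrays of time point 1 lay at -0.09 and -0.65. The mean was -0.59 ± 0.21 (SD, n = 9, limma adjusted p = 8.05e-05). Afp, the fetal counterpart that lies next to Alb in the genome, had no value on any array.

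Trf encodes transferrin, which carries iron, and was measured at 7 time points, too few for the test above. Its ratio was -0.17 at time point 1, -0.69 at 2, -1.01 at 5, -1.02 at 6, -0.20 at 7, -0.67 at 9 and -0.96 at 10, each from a single array. All of these lay below 0. When genes with 6 or more time points were tested, Trf had a mean of -0.67 ± 0.36 (SD, n = 7, limma adjusted p = 0.00161). In that test 2 of 22 members were higher and 6 lower, against 14.8% and 13.9% of 6214 genes.

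Hp encodes haptoglobin, which binds free haemoglobin, and Hpx encodes hemopexin, which binds free haem. Their means of 0.02 ± 0.34 and 0.24 ± 0.58 (SD, n = 11) were not called (limma adjusted p = 0.866 and 0.211). Both are acute phase proteins in mice, and both differed among time points, as described later. Ahsg, which encodes the plasma protein fetuin A, had values from -0.28 to 0.32 at 5 time points. Ambp, the precursor of alpha-1-microglobulin and bikunin, read -0.37 at time point 2, 0.05 at 9 and 2.79 at 5, where its spot lies at the raised second place of 20. Ttr, which encodes the thyroxine carrier transthyretin, gave -0.09 at time point 9, its only value.

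The inter-alpha-trypsin inhibitor family includes heavy chains, some of which are linked to hyaluronan. Of its 5 members, among them Ambp, described above, 1 could be tested, Itih3. Itih3 read 0.02 at time point 1, -0.30 at 2, -0.85 at 3, -0.45 at 4, -0.42 at 5, -0.14 at 8, 0.05 at 9, -0.44 at 10 and -0.34 at 11. It lay below 0 at 7 of 9 time points, and the mean of -0.32 ± 0.28 (SD, n = 9) was called lower (limma adjusted p = 0.0112). Itih2 had a mean of -0.31 ± 0.36 (SD, n = 7) with a range from -0.91 to 0.05 and was not called among genes with 6 or more time points (limma adjusted p = 0.0656). Itih4, an acute phase member next to Itih3 in the genome, had 1 value, -0.09 at time point 7.

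**Figure D2:**
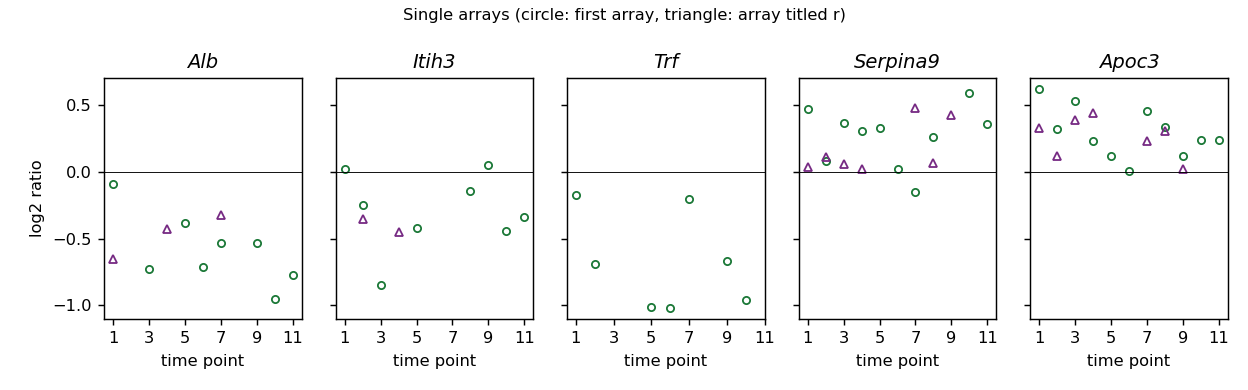
Log2 ratio (y axis) on each array at each time point (x axis) for Alb, Itih3, Trf, Serpina9 and Apoc3, circles for first arrays and triangles for arrays titled r. All Alb and Trf arrays lie below 0 and all Apoc3 arrays lie above it, whereas Itih3 and Serpina9 have arrays on both sides.

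Among the apolipoproteins, Apoc3 was higher and Apoe lower, and the other 4 tested were not called. Apoc3 encodes apolipoprotein C-III, which inhibits lipoprotein lipase and delays the removal of triglyceride-rich particles. Its ratio was 0.48 at time point 1, 0.22 at 2, 0.46 at 3, 0.34 at 4, 0.12 at 5, 0.01 at 6, 0.35 at 7, 0.33 at 8, 0.07 at 9, 0.24 at 10 and 0.24 at 11. All 18 arrays were above 0, from 0.01 to 0.62. The mean was 0.26 ± 0.15 (SD, n = 11, limma adjusted p = 0.00227), and time points 1, 3 and 7 passed the test on their own.

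Apoe encodes the ligand by which lipoprotein remnants bind the LDL receptor. Its ratio was 0.25 at time point 1, 0.08 at 2, -0.04 at 3, -0.08 at 4, -1.11 at 5, -0.40 at 6, -0.36 at 7, -0.32 at 8, -0.30 at 9, -1.17 at 10 and -0.28 at 11. The 2 earliest time points lay above 0, and the 2 lowest values came from time points with 1 array. At time point 10 the left-out array read 0.26, against -1.17 on the one used. The mean of -0.34 ± 0.44 (SD, n = 11) was called lower (limma adjusted p = 0.0315), but not with time point 6, 8, 9 or 10 left out (adjusted p from 0.0513 to 0.0670) or with all 20 arrays (adjusted p = 0.0645). The first arrays alone gave -0.29 (adjusted p = 0.0707), and centring within blocks of 540 probe numbers gave -0.25 (adjusted p = 0.134), neither called.

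Apoa1, Apoc3, Apoa4 and Apoa5 are neighbours in the genome, and of those tested Apoc3 alone was called for its mean. Apoa1, the main protein of high-density lipoprotein, had a mean of 0.00 ± 0.15 (SD, n = 10, limma adjusted p = 0.973) and a range from -0.33 to 0.19. Apoa4, a lipid-binding protein of chylomicrons and high-density lipoprotein, had a mean of 0.05 ± 0.30 (SD, n = 9, limma adjusted p = 0.670). Apoa5 had no value on the 18 arrays. The difference between Apoc3 and its neighbours was not tested. Apoa2, another high-density lipoprotein component, had a mean of -0.06 ± 0.14 (SD, n = 10) and was not called (limma adjusted p = 0.431). Apof, which inhibits lipid transfer between lipoproteins, had a mean of -0.20 ± 0.40 (SD, n = 11) and was not called with every time point (limma adjusted p = 0.146), but was called lower without time point 5, at -0.30 (adjusted p = 0.00763). Apoc4 gave -0.47, -0.28 and -1.01 at time points 1, 2 and 5, and Apom, which carries sphingosine-1-phosphate, gave -0.28 at time point 9 and 3.33 at time point 5, at the raised second place of 20.

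Of 12 coagulation factors and fibrinogen chains, 2 could be tested, and Fgb was lower. Fgb encodes the beta chain of fibrinogen, the precursor of fibrin. Its ratio was 0.15 at time point 1, -0.18 at 2, -0.13 at 3, 0.00 at 4, 0.06 at 5, -0.23 at 6, 0.04 at 7, -0.61 at 8, -0.65 at 9, -0.54 at 10 and -0.87 at 11. The 4 latest time points were the 4 lowest, and their 6 arrays, from -0.87 to -0.54, lay below all 12 arrays of time points 1 to 7, which ran from -0.24 to 0.39. The mean was -0.27 ± 0.34 (SD, n = 11, limma adjusted p = 0.0338), and the call was lost with time point 8, 9, 10 or 11 left out (adjusted p from 0.0713 to 0.0816) with all 20 arrays (adjusted p = 0.0525) and with the first arrays alone (adjusted p = 0.0651).

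F9 encodes factor IX, the protease deficient in haemophilia B. Its ratio was 0.13 at time point 1, 0.30 at 2, 0.49 at 3, 0.39 at 4, 0.33 at 7, 0.20 at 8, 0.06 at 9, -0.28 at 10 and -0.60 at 11. Its spot is at the first place of 20, so its readings of 0.19 at time point 5 and -0.54 at time point 6 had been set to missing. It lay above 0 at the other 7 time points up to 9 and below at the last 2, each of which had 1 array. The left-out array of time point 10 read 0.30, against -0.28 on the one used. The mean of 0.11 ± 0.35 (SD, n = 9) was not called (limma adjusted p = 0.419). F2, which encodes prothrombin, ran from -0.77 to 0.05 with a mean of -0.23 ± 0.28 (SD, n = 7) and was not called among genes with 6 or more time points (limma adjusted p = 0.105). F11 had values from -0.14 to 0.25 at 3 time points. F10 read 2.73 at time point 5 and 1.65 at time point 6, at the raised second place of 20, and had no other value among the 18 arrays.

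Of 28 serpins, 7 could be tested, and 1 was higher and 1 lower. Serpina9 encodes centerin, a serpin known from germinal-centre B cells. Its ratio was 0.26 at time point 1, 0.10 at 2, 0.22 at 3, 0.16 at 4, 0.33 at 5, 0.02 at 6, 0.17 at 7, 0.17 at 8, 0.43 at 9, 0.59 at 10 and 0.36 at 11. Each time point lay above 0, though the arrays of time point 7 were at -0.15 and 0.48. At time point 10 the left-out array read -0.55, against 0.59 on the one used. The mean was 0.25 ± 0.16 (SD, n = 11, limma adjusted p = 0.00332). With centring on the genes measured on all 18 arrays it was 0.16 and not called (limma adjusted p = 0.0562).

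Serpinb6b encodes a clade B protease inhibitor of the cell interior. Its ratio was 0.16 at time point 1, -0.13 at 2, -0.28 at 3, -0.58 at 4, -0.85 at 5, 0 at 6, -0.03 at 7, -0.40 at 8, -0.06 at 9, -0.35 at 10 and -0.40 at 11. It was below 0 at 9 of 11 time points, and the arrays of time point 4 were at -0.95 and -0.21. The mean was -0.27 ± 0.29 (SD, n = 11, limma adjusted p = 0.0197), with the call lost when time point 4 was left out (adjusted p = 0.0504). On the array of time point 5 the spots of Serpinb6b, Serpinb6c, Itih3 and F10 lie in a block of 540 probe numbers whose median was -0.31. With each block of an array centred on its own median, the means of Itih3 (-0.26, adjusted p = 0.00895) and Serpinb6b (-0.22, adjusted p = 0.0109) were still called lower by limma. Serpinb6c was then called lower as well, just under the threshold (-0.18, adjusted p = 0.04999).

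The other 5 serpins tested were not called. Serpina5, the protein C inhibitor, had a mean of -0.09 ± 0.25 (SD, n = 9, limma adjusted p = 0.405), with -0.41 its lowest value and 0.30 its highest. Serpina6, which encodes the cortisol carrier transcortin, had a mean of -0.08 ± 0.24 (SD, n = 11, limma adjusted p = 0.394) with 0.30 its highest value, at time point 7, and -0.50 its lowest, at time point 11. Serpinb6c had a mean of -0.21 ± 0.32 (SD, n = 9, limma adjusted p = 0.113), including -1 at time point 5. The remaining 2 are clade B inhibitors as well. Serpinb1a, an inhibitor of neutrophil proteases, had a mean of 0.06 ± 0.21 (SD, n = 11, limma adjusted p = 0.477), and Serpinb9c one of 0.08 ± 0.15 (SD, n = 11, limma adjusted p = 0.239).

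Rarely measured serpins included several with values on one side of 0. Serpinb7 gave -0.42, -0.38, -0.68 and -0.84 at time points 1, 3, 4 and 11. Serping1, the inhibitor of complement C1, gave -0.52, -0.61 and -0.41 at time points 3, 4 and 9. Serpinb2, which inhibits plasminogen activators, gave 1.68 and 1.51 at time points 9 and 10. These values come from single arrays and were not tested. Serpina3n, an acute phase antiproteinase, lay between -0.24 and 0 at 4 time points, and Serpina1f gave -0.49 and -0.57 at time points 3 and 7. Serpinc1, which encodes antithrombin, gave -0.19 at time point 3 and 0.43 at time point 5. Serpinb1b gave -0.19 at time point 9 and Serpinb3a 0.33 at time point 10.

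A constant dye bias cancels when time points are compared with each other. Limma's F-test of equal time-point means took the 13 members with values on 15 or more of the 18 arrays and called 8 of them (61.5%), against 31.8% of 3688 genes. The called members were Apoa4, Apoe, Apof, F9, Fgb, Hp, Hpx and Serpinb6b. Apoa1, Apoa2, Apoc3, Serpina9 and Serpinb9c were not called (adjusted p from 0.575 to 0.827). Without time point 5, 5 members were called, Apoe, Apof, F9, Fgb and Hp, against 23.5% of all genes. With the 7 time points that had 2 arrays, 3 were called, Apof, Fgb and Hp, against 12.6%. With all 20 arrays and every spot, 3 of 10 were called, Fgb, Hp and Hpx, against 7.15%. The count of calls was lower when time points with 1 array were left out, and so was the share over all genes. Whether this came from those time points or from fewer arrays in the fit was not tested.

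Fgb, Hp and Apof differed among time points with 18 arrays, without time point 5 and with the 7 time points, and Fgb and Hp also with all 20 arrays. Fgb had adjusted p = 0.000122 with 18 arrays and 0.00243 with 7 time points (limma F-test), and time points 8 and 9 were lower than the median probe on their own (-0.61, adjusted p = 0.00175, and -0.65, adjusted p = 0.000500). Hp read 0.11 at time point 1, 0.38 at 2, -0.05 at 3, -0.11 at 4, 0.60 at 5, 0.04 at 6, -0.60 at 7, 0.21 at 8, 0.04 at 9, -0.46 at 10 and 0.09 at 11. The arrays of time point 7 agreed, at -0.59 and -0.61, and those of time point 2 were at 0.27 and 0.49. Hp had adjusted p = 0.000133 with 18 arrays and 0.00243 with 7 time points (limma F-test).

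Apof read 0.06 at time point 1, -0.24 at 2, -0.20 at 3, -0.31 at 4, 0.72 at 5, -0.10 at 6, -0.995 at 7, -0.31 at 8, -0.35 at 9, -0.35 at 10 and -0.19 at 11. The arrays of time point 7, at -1.07 and -0.92, were the lowest of all 17, and time point 5 was the highest. Apof had adjusted p = 7.58e-06 with 18 arrays, 0.00397 without time point 5, 0.00272 with 7 time points and 0.199 with all 20 arrays (limma F-test).

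Apoe and F9 were called with and without time point 5 but not with the 7 time points. Apoe had adjusted p = 1.88e-06, 0.000234 and 0.119 in these fits (limma F-test), its lowest values being those of time points 5 and 10. F9 had adjusted p = 0.00204, 0.00279 and 0.553 (limma F-test), its lowest values being those of time points 10 and 11. With all 20 arrays neither was called (adjusted p = 0.557 and 0.181).

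Hpx, Apoa4 and Serpinb6b lost the call when time point 5 was left out. Hpx read 0.25 at time point 1, 0.24 at 2, 0.10 at 3, 0.02 at 4, 1.92 at 5, 0.25 at 6, 0.18 at 7, -0.24 at 8, -0.25 at 9, 0.06 at 10 and 0.17 at 11. Its spot lies at the second place of 20, where the median of the array of time point 5 was 1.24, and its adjusted p was 5.36e-10 with that time point and 0.218 without it (limma F-test). Apoa4 read 0.33 at time point 1, -0.02 at 2, -0.13 at 3, 0.24 at 4, 0.61 at 5, 0.13 at 7, -0.19 at 8, -0.25 at 9 and -0.24 at 11. Its highest value was again at time point 5, at the third place of 20, where the median was 0.46, and its adjusted p went from 0.0268 to 0.146 (limma F-test). Serpinb6b was lowest at time point 5, in the block described above, and its adjusted p went from 0.0133 to 0.0940 (limma F-test). It was also not called with block centring (adjusted p = 0.113) or without the first or second array of time point 1 (adjusted p = 0.0924 and 0.0697). Apoa4 was not called without the second array of time point 1 or the first of time point 8 (adjusted p = 0.0778 and 0.0606).

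**Figure D3:**
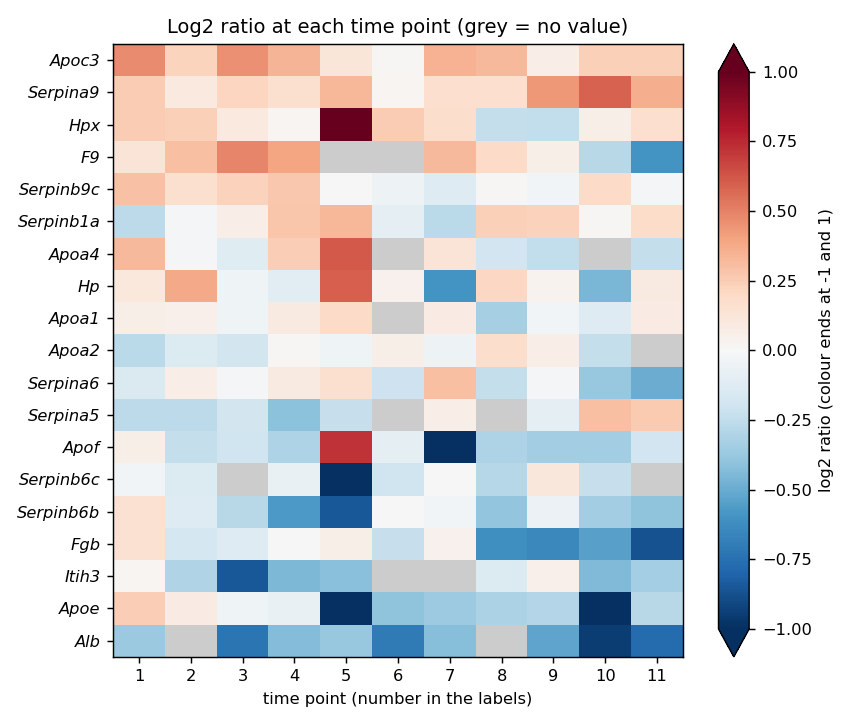
Log2 ratio of the 19 tested members (y axis, ordered by mean) at the 11 numbered time points (x axis), with colours that end at -1 and 1 and grey for no value. Alb is below 0 wherever it was measured, Apoc3 and Serpina9 are above 0 throughout, and Hpx at time point 5 (1.92) lies beyond the colour range.

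Members were also compared with the median probe at single time points with 2 arrays (limma's test, adjusted within a time point). At time point 1, 1 of 13 was called, Apoc3 (0.48, adjusted p = 0.00747), against 21.8% of all genes. At time point 2, 0 of 12 were called, against 4.15%. At time point 3, 2 of 10 were called, Apoc3 (0.46, adjusted p = 0.0146) and F9 (0.49, adjusted p = 0.0101), against 12.5%. At time point 4, 2 of 12 were called, F9 higher (0.39, adjusted p = 0.0252) and Serpinb6b lower (-0.58, adjusted p = 0.00171), against 25%. The higher calls among these came from Apoc3 and F9 alone, each called at more than 1 time point.

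At time point 7, 4 of 12 members were called, against 29% of all genes. Apoc3 was higher (0.35, adjusted p = 0.0438), and Apof (-0.995, adjusted p = 8.24e-09), Hp (-0.60, adjusted p = 0.000295) and Apoe (-0.36, adjusted p = 0.0397) were lower. The arrays of Apoe were at -0.04 and -0.68 there. At time point 8, 1 of 12 was called, against 7.69%, and at time point 9, 1 of 10, against 11.2%, Fgb in both.

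No member had a trend over the numbered time points after adjustment (limma's slope test, 0 of 19, against 0% of all genes). At an unadjusted p under 0.05 there were 4 of 19 members and 503 of 4398 genes. The slope of Fgb was -0.08 ± 0.02 per time point (SE), with the smallest adjusted p of the members (0.152).

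Genes around the plasma proteins were counted in lists taken from general knowledge. Of 6 liver transcription factors tested, 2 were lower and none higher, against 12.2% and 21.2% of all genes. Cebpb, a factor that drives acute phase genes, had a mean of -0.58 ± 0.45 (SD, n = 11, limma adjusted p = 0.00168), and Foxa1, a pioneer factor of liver genes, -0.27 ± 0.27 (SD, n = 10, limma adjusted p = 0.0191). Hnf4a, a central regulator of hepatocyte genes, had a mean of 0.08 ± 0.08 (SD, n = 10, limma adjusted p = 0.245). The median of the 6 means was -0.09, against 0.03 over all genes.

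None of 6 genes on the acute phase list, which also holds signalling genes such as Il1r1, was called for its mean in either direction. Nor was any of 5 further plasma protein genes. Over all genes, 21.2% were called higher and 12.2% lower. Farthest from 0 on the acute phase list were Il1r1 (0.18 ± 0.85, SD, n = 9), the interleukin-1 receptor, and Saa4 (0.16 ± 0.58, SD, n = 9). Among the plasma protein genes they were Azgp1 (-0.20 ± 0.44, SD, n = 11) and Mbl1 (-0.12 ± 0.23, SD, n = 11). The medians of the acute phase list and the plasma protein genes were 0.01 and -0.06. By the F-test, 3 of 4 genes on the acute phase list and 3 of 5 plasma protein genes differed among time points, against 31.8% of all genes. With the 7 time points that had 2 arrays, 1 of 6 and 2 of 5 did, against 12.6%.

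Of 6 genes of lipoprotein assembly and uptake, 1 was lower, against 12.2% of all genes. It was Abcg5, a sterol exporter (-0.52 ± 0.31, SD, n = 9, limma adjusted p = 0.000915). Of 24 genes for entry into and export from the endoplasmic reticulum, 4 were higher and 2 lower. The shares over all genes were 21.2% and 12.2%. The called genes of this list were near or below those shares. Those called included Copb2, a coat protein of vesicles (0.46 ± 0.40, SD, n = 11, limma adjusted p = 0.00340), Sec11a, a signal peptidase subunit (0.34 ± 0.20, SD, n = 11, limma adjusted p = 0.000890), Srp19 of the signal recognition particle (0.26 ± 0.21, SD, n = 11, limma adjusted p = 0.00629) and Lman2, a cargo lectin (-0.30 ± 0.20, SD, n = 9, limma adjusted p = 0.00576). The median of the 24 was 0.05, so this list had members on both sides. Of 5 further coagulation genes, 2 were higher, against 21.2% of all genes. They were Plau, the urokinase plasminogen activator (0.40 ± 0.59, SD, n = 11, limma adjusted p = 0.0486), and Tfpi2, a protease inhibitor (0.18 ± 0.20, SD, n = 11, limma adjusted p = 0.0356).

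Cell type markers were counted on the same scale, on which a ratio gives no level of a marker. Over all genes tested, 21.2% were called higher and 12.2% lower. Of 18 hepatocyte markers 14 were on the array and 11 gave a value. Of the 5 tested, 3 were lower, namely Alb, itself a member, Tdo2 (-0.30) and Krt8 (-0.29). Apoa1 (0.00), also a member, and Hnf4a (0.08) were not called. Of the fetal liver list, 4 of 7 genes on the array gave a value and 1 of 2 tested was higher (Gpc3, 0.19). Of the bile duct list, 4 of 5 gave a value and 1 of 4 tested was lower (Krt19, -0.26). Of 11 stellate cell or fibroblast markers 9 gave a value, and of 5 tested 1 was higher (Col1a2, 0.21) and 1 lower (Pdgfrb, -0.29). Of 8 macrophage markers on the array 2 gave a value, Aif1 (0.74), which was higher, and Cd163 (-0.08), which was not called. Of 7 endothelial markers 2 gave a value, and the 1 tested, Kdr (0.21), was higher. Whether other cells took part in the results was not tested.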

How the data were processed

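The deposited series matrix holds 1 column per array, read here as log2 ratios of Cy5 over Cy3. The sources used here do not give how the authors scaled and normalized them or in which direction, so base 2 is an assumption and the direction is likely. Members and lists were chosen with earlier results of these data known, and so were the 2 arrays left out and the spots set to missing. Each array was centred on its median and probes of a symbol were averaged. The annotation named 14718 of 17280 probes with 1 symbol, and all 64 members matched RefSeq by symbol.

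After the arrays of each time point had been averaged, lmFit and eBayes of limma 3.58.1 (R 4.3.3) tested the mean against 0 and the slope for genes with 9 or more time points. Its moderated variance was used for the F-test over time points (at most 3 arrays without a value) and for time points with 2 arrays. P-values were adjusted by Benjamini-Hochberg over all genes tested, with a threshold of 0.05. Time points were taken as independent. The code was tested on simulated data. Members with 9 or more time points were named, and those called in a test of mean or time points were given with every value. From each list up to 4 called genes were named, otherwise the 2 farthest from 0.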

Additional observations from a re-analysis of the deposited data

Results flagged for a closer look

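In 2 of 14 members tested, 1 time point stood apart from the others by Dixon's test, which chance does in about 1 of 20 groups. The 11 members with values at all 11 time points, among them Hpx, were not part of this test. Serpinb6c was at -1 at time point 5, where the nearest of its 9 values was -0.29. Serpina3n was at 0 at time point 1, where the nearest of its 4 values was -0.22.

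The F-test of limma found differences among time points for 8 members. The adjusted p was 5.36e-10 for Hpx, 1.88e-06 for Apoe, 7.58e-06 for Apof, 0.000122 for Fgb, 0.000133 for Hp, 0.00204 for F9, 0.0133 for Serpinb6b and 0.0268 for Apoa4.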

How the results depend on the processing

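Of the 19 members tested, 5 were lower and 2 higher. Counted again over all members tested, 3 were lower with all 20 arrays and every spot, 1 lower and 10 higher without centring, 9 lower and 1 higher with centring on the genes measured on all arrays, 3 lower (of 11 tested) with genes that lack no value, and 1 lower (of 14 tested) with the first arrays only. Leaving out 1 time point or array at a time gave 3 to 6 lower members, 2 to 2 higher and 0 to 0 with a trend. The 8 members that differed among time points became 3 (of 10 tested) with all 20 arrays and every spot, 4 (of 5 tested) with genes that lack no value, 5 without time point 5 and 3 with the 7 time points of 2 arrays, and 6 to 8 with 1 array left out. With the arrays titled r as a replicate block, 8 were called. Fewer arrays or genes enter some of these fits, and otherwise the cause was not tested. The fits without time point 5 and with the 7 time points, centring within blocks of 540 probe numbers and setting the first 4 of every 20 spots to missing were added after seeing the data. Centring moved all values together: without it the median over genes of the mean was 0.28. The sign of a mean turned without centring for Apoa2 (0.20), Apof (0.0491), Serpina5 (0.15), Serpina6 (0.18) and Serpinb6c (0.0417), with centring on the common genes for Apoa1 (-0.0997), Apoa4 (-0.0532), Hp (-0.0742), Serpinb1a (-0.0353) and Serpinb9c (-0.0120), with every spot kept for Apoa1 (-0.00225), with the first arrays only for Apoa2 (0.0178), and with block centring for Apoa1 (-0.0865) and Hp (-0.0264). With 1 time point or array left out the means ran from -0.0181 to 0.0397 for Apoa1, from -0.0159 to 0.0916 for Apoa4 and from -0.0353 to 0.0848 for Hp. None of the means whose sign turned was called with 18 arrays centred on their medians, and 1 was called after turning (Apoa2 without centring, adjusted p = 0.0192). Alb stayed lower in all 21 alternatives that tested it (-0.69 to -0.37) and Apoc3 higher in all 23 (0.16 to 0.51). Alb had too few values to be tested with genes that lack no value or with the first arrays only. Over all genes, the 1172 of 3688 that differed among time points became 241 of 3370 with all 20 arrays. They became 670 of 1865 with genes that lack no value and 533 of 4220 with the 7 time points. The 931 higher and 536 lower of 4398 genes became 2946 and 69 without centring, and 434 and 1163 with centring on the common genes. The lower ones became 866 of 6214 with 6 or more time points and 234 of 2574 with genes that lack no value. With the first arrays only they were 336 of 4002. The number of arrays limits the precision.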

Other observations

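Among the 26 members with no value on the 18 arrays, 12 had one on a spot or array that was left out. For 10 of them, Apoa5, Apoc1, Apoc2, F7, Fgg, Serpina12, Serpinb12, Serpinb6a, Serpinb8 and Serpind1, the only value was on the second array of time point 6, which correlated at 0.0483 with the first. F8 and Serpinf1 had values only on spots at the first place of every 20 at time points 5 and 6.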
